A study of Mus musculus with 22 samples.

Results

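The 10 serotonin receptor genes Htr1a, Htr1b, Htr1f, Htr2a, Htr2c, Htr3a, Htr4, Htr5a, Htr6 and Htr7 were followed through the prefrontal cortex (PFC) of mice given ethanol with or without a poly(ADP-ribose) polymerase (PARP) inhibitor. They were taken by their Ensembl identifiers from a table of 39056 genes, and all 10 passed the filter on low counts. All 11 mice were males of 8 to 12 weeks in a C57BL/6J background, bred from a tetO-EGFP/Rpl10a line and a CaMKIIα-tTA line, so that the ribosomal protein Rpl10a carried EGFP wherever the CaMKIIα promoter drove the transactivator. Control mice (n = 3) received normal saline by intraperitoneal injection. EtOH mice (n = 4) received 2 g/kg of ethanol per day as 2 injections a day for 4 days, and EtOH + ABT-888 mice (n = 4) received the same ethanol plus 25 mg/kg of the PARP inhibitor ABT-888 (veliparib) on day 4 only. The PFC was collected 2 h after the last injection. Each mouse gave a TRAP library (translating ribosome affinity purification, RNA pulled down with antibodies to EGFP) and a total-RNA library from the same homogenate, 22 libraries in all. Mice given ABT-888 without ethanol and mice without the transgenes were not analysed here.

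Serotonin reaches the cortex through axons of the raphe nuclei and acts there through receptors of several families. Htr1 and Htr5 receptors couple to Gi/o proteins and lower cyclic AMP, Htr2 receptors couple to Gq proteins and phospholipase C, Htr4, Htr6 and Htr7 receptors couple to Gs proteins and raise cyclic AMP, and Htr3 receptors are ligand-gated ion channels. In cortex, Htr1a and Htr2a are best known from pyramidal neurons, Htr3a from a class of inhibitory interneurons, and Htr1b from axon terminals, where the protein acts far from the cell body that holds the mRNA. Htr2c is also very abundant in the choroid plexus, and Htr1b, Htr2c, Htr4 and Htr6 are well known from striatal neurons.

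Htr2a and Htr2c were the 2 of 10 members called between EtOH and Control mice in total RNA, where 17.6% of all tested genes were called. In TRAP RNA 0 members were called (5.24% of tested genes). Both total-RNA calls were lost in 1 fit over all 22 libraries, which called 151 of 14072 genes in that comparison (values further on). The sequence ahead of their start is shown to give the promoter side of these genes. RefSeq windows of 250 bases before the start were on hand for 8 of the 10 members. Bases lying inside the GENCODE gene were left off. Capitals mark matches on either strand to any of 5 motifs. These were the TATA box, searched as TATAAA, and the GC box, searched as GGGCGG. The core of the cyclic AMP response element was searched as TGACG. The repeat unit of the glucocorticoid response element was searched as AGAACA. The E-box of clock genes was searched as CACGTG, and no matches overlapped.
Htr2a, chr14:74640624-74640839, GRCm38.p6, plus strand: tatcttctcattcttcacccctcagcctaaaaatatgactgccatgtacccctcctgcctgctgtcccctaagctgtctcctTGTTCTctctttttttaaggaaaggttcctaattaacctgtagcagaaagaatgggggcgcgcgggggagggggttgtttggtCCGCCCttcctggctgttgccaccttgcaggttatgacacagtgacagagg
Htr2c, chrX:146962263-146962512, GRCm38.p6, plus strand: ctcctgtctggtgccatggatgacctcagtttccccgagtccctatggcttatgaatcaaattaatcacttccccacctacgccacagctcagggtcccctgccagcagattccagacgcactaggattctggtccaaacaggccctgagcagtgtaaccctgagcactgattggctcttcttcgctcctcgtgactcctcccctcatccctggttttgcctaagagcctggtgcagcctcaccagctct
The Htr2a window of 216 bases held 1 match to the glucocorticoid repeat unit and 1 to the GC box, each on the minus strand, motifs that 14.2% and 27.9% of 32851 RefSeq windows of that length held. Those windows were the first 216 of 250 bases, so the bases nearest each RefSeq start were left out of them. The Htr2c window held 0 matches to any of the 5 motifs, which were found in 12.4%, 32.7%, 17.8%, 16.1% and 6.02% of windows of its length in the order listed above.

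Total counts ran from 6570957 to 22002618 in the TRAP libraries (median 15711482) and from 22132534 to 32421392 in the total-RNA libraries (median 28734687), the shallowest being the TRAP library of mouse 6 (EtOH + ABT-888). Levels are CPM, read counts scaled to library size with TMM factors, and a gene was called where its adjusted p in edgeR's quasi-likelihood test was under 0.05. Of 6 excitatory cortical markers, 0 were higher and 5 lower in TRAP in each treatment, with Slc17a7 (vesicular glutamate transporter) at a median of 307 CPM in TRAP and 877 CPM in total RNA, and Camk2a at 2291 and 2305 CPM. All 12 markers of striatal projection neurons were higher in TRAP in each treatment, and their summed level was 13258 to 16362 CPM in TRAP libraries against 1457.5 to 2827 CPM in total RNA. Drd1 had medians of 455 and 78.0 CPM and Adora2a of 704 and 53.3 CPM. The 6 astrocyte markers, all lower in TRAP, summed to 43.7 to 207 CPM against 915 to 1189 CPM. Of 8 markers of cortical layers 5 and 6, 4 were higher and 4 lower in TRAP in Control mice, with summed levels of 768 to 1137 CPM in TRAP and 390 to 540 CPM in total RNA. Bcl11b gave most of the TRAP sum, with a median of 537 CPM against 158 CPM in total RNA. Fezf2 had medians of 5.08 and 28.0 CPM and Ccn2 of 3.69 and 41.6 CPM. Of 6 markers of layers 2 to 4, 2 were higher and 3 lower, with sums of 520.0 to 732 and 725 to 899.6 CPM. The part of these markers in the TRAP results was not tested. In bulk RNA, fewer cells of a type and less RNA per cell cannot be told apart.

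Across the 11 mice, the receptor mRNAs differed widely in level, and the order was not the same in the 2 pools. Per kilobase of exon, a scale on which genes can be compared, total RNA over the 3 treatments together held most Htr2a, with a median of 8.88 (5.19 to 12.8) CPM per kb over the mice (lowest to highest in brackets). It was followed by Htr5a at 6.25 (5.49 to 9.71), Htr1b at 5.69 (4.14 to 7.48) and Htr2c at 5.06 (3.78 to 8.13) CPM per kb. Htr1a, the inhibitory receptor of pyramidal neurons and raphe cells, stood at 3.73 (2.21 to 4.55) CPM per kb and Htr1f at 2.97 (2.38 to 3.68). Htr3a at 2.10 (1.60 to 3.10), Htr7 at 1.95 (1.64 to 2.45), Htr6 at 1.20 (0.751 to 1.71) and Htr4 at 0.548 (0.297 to 1.06) CPM per kb were the lowest. Each pair of neighbours in this order overlapped in range, and the top of the order was not the same in each treatment. In Control mice Htr2a averaged 11.5 ± 1.17 CPM per kb (SD, n = 3) and Htr2c 4.40 ± 0.903 CPM per kb. In EtOH mice (n = 4) the means of Htr2c, Htr2a and Htr5a were 7.54 ± 0.670, 7.38 ± 0.930 and 7.20 ± 1.69 CPM per kb, closer to each other than their spread.

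In TRAP RNA the first place went to Htr1b, with 25.3 (14.7 to 28.5) CPM per kb, and its range lay above that of Htr2c at 9.54 (7.49 to 14.5) CPM per kb. Htr2a with 6.02 (2.77 to 7.68) and Htr5a with 3.29 (2.47 to 6.00) CPM per kb came next. Htr6 stood at 2.88 (1.22 to 4.24) CPM per kb, Htr1f at 1.32 (0.582 to 2.31) and Htr4 at 0.927 (0.0918 to 2.06). Htr3a, Htr1a and Htr7 were together at the bottom, with medians of 0.669, 0.666 and 0.660 CPM per kb. Below Htr1b, each pair of neighbours overlapped in range.

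**Figure D1:**
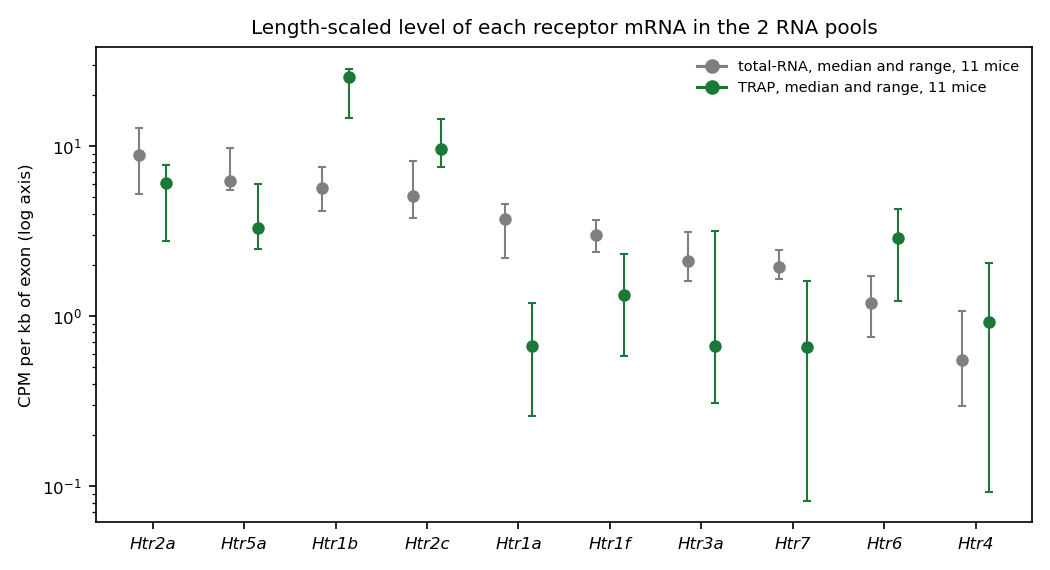
Level of each receptor mRNA per kilobase of exon (CPM per kb, log axis) in total-RNA (grey) and TRAP (green) libraries, with points for the median and bars for the lowest and highest of 11 mice. Htr1b had a median of 25.3 CPM per kb in TRAP against 5.69 in total RNA, and Htr1a went the other way with 0.666 against 3.73.

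The first question was which receptor mRNAs were more or less abundant on tagged ribosomes than in the tissue. In Control mice all 10 members were called, 4 higher in TRAP (Htr1b, Htr2c, Htr4 and Htr6) and 6 lower (Htr1a, Htr1f, Htr2a, Htr3a, Htr5a and Htr7). Htr3a, Htr4 and Htr7 lost that call in 1 fit over all 22 libraries and again without the total-RNA library of mouse 1, which left 7 members in each case (6023 and 7392 of 14072 genes called). This has to be read against the background, since 29.5% of all 14072 tested genes were called higher and 30.4% lower in that comparison. In EtOH mice 3 members were called higher and 5 lower (24.3% and 26.5% of tested genes), and in EtOH + ABT-888 mice 2 were called higher and 5 lower (19.5% and 21.5%). The median log2 difference over the members was -0.77, -0.56 and -0.94 in the 3 treatments, against 0.02, 0.03 and 0.05 over all tested genes. The sign of each member was the same in the 3 treatments, called or not, with all libraries.

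**Figure D2:**
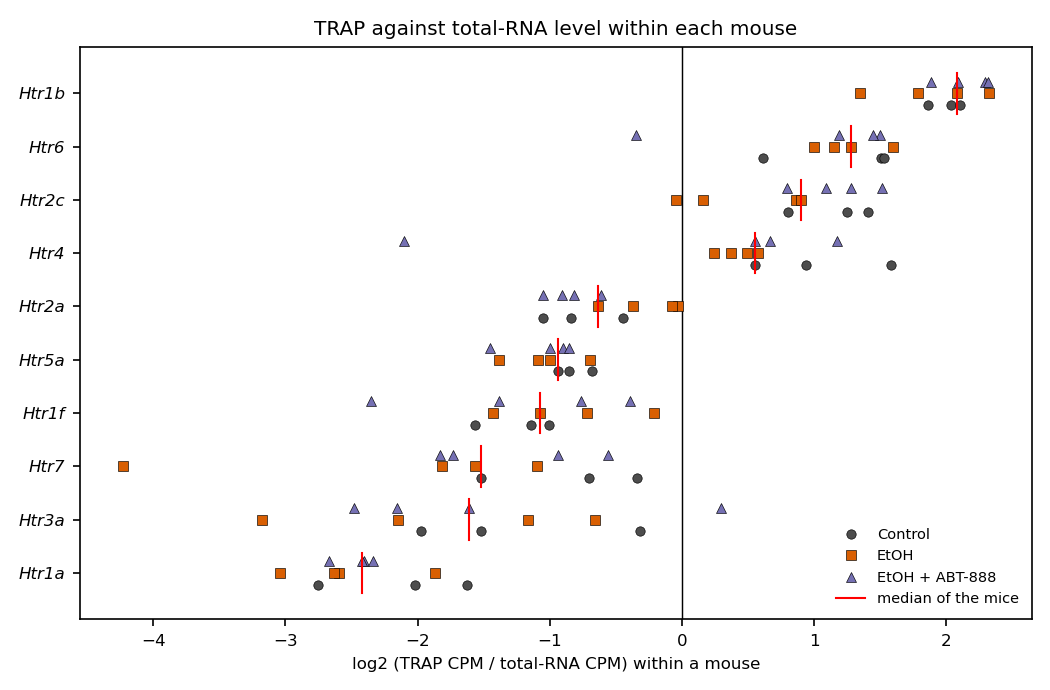
Log2 of TRAP CPM over total-RNA CPM within each of the 11 mice, by receptor gene (circles, Control; squares, EtOH; triangles, EtOH + ABT-888; red line, median of the mice). Htr1b lay above 0 in 11 of 11 mice, and Htr1a, Htr1f, Htr2a, Htr5a and Htr7 below 0 in 11 of 11.

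Among the Gi/o-coupled receptors, Htr1b stood apart from Htr1a, Htr1f and Htr5a. Htr1b (chr9:81628291-81633828, mm10, minus strand), an autoreceptor and heteroreceptor of axon terminals, read 91.7, 119 and 121 CPM in the 3 Control mice, 106, 122, 119.6 and 69.3 CPM in the 4 EtOH mice and 134, 132, 97.1 and 88.0 CPM in the 4 EtOH + ABT-888 mice in TRAP RNA. The total-RNA libraries gave 22.4, 27.7 and 33.1 CPM in the 3 Control mice, 24.9, 35.4, 23.9 and 27.2 CPM in the 4 EtOH mice and 31.6, 26.9, 19.5 and 23.8 CPM in the 4 EtOH + ABT-888 mice. No TRAP library overlapped the total-RNA libraries, and within the mice TRAP was 2.55 to 4.99 times total RNA (with a prior count of 1 in each library). The log2 difference was 1.98 (SE 0.15, adjusted p 1.13e-06, edgeR) in Control, 1.88 in EtOH and 2.15 in EtOH + ABT-888 mice. In the annotation 852 exonic bases of Htr1b are shared with the antisense gene D430036J16Rik, and since the strand setting of the counting is not given in the sources used here, reads of the 2 genes could not be told apart.

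Htr1a (chr13:105443639-105448122, plus strand) had the lowest TRAP level relative to total RNA of the 10 members in all 3 treatments. Its TRAP level was 2.99, 4.32 and 5.35 CPM in the 3 Control mice, 4.80, 1.16, 1.82 and 2.79 CPM in the 4 EtOH mice and 3.12, 3.75, 1.69 and 2.55 CPM in the 4 EtOH + ABT-888 mice. In total RNA it was 20.4, 17.6 and 16.6 CPM in the 3 Control mice, 17.7, 9.89, 11.2 and 17.5 CPM in the 4 EtOH mice and 16.7, 19.1, 11.0 and 13.9 CPM in the 4 EtOH + ABT-888 mice. The pools did not overlap in any treatment, and TRAP held 0.121 to 0.324 times the total-RNA level within a mouse. TRAP minus total RNA on the log2 scale was -2.08 (SE 0.20, adjusted p 5.68e-06), -2.46 (SE 0.40) and -2.48 (SE 0.31) in the order Control, EtOH and EtOH + ABT-888.

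Htr5a (chr5:27842149-27855088, plus strand), a Gi/o-coupled receptor with few known ligands, was lower in TRAP in each mouse. The TRAP libraries held 20.2, 18.1 and 15.4 CPM in the 3 Control mice, 15.1, 13.3, 17.8 and 32.2 CPM in the 4 EtOH mice and 16.8, 17.7, 17.3 and 25.9 CPM in the 4 EtOH + ABT-888 mice. The total-RNA libraries held 32.3, 32.7 and 29.5 CPM in the 3 Control mice, 32.3, 34.7, 35.7 and 52.2 CPM in the 4 EtOH mice and 33.6, 48.6, 32.2 and 46.9 CPM in the 4 EtOH + ABT-888 mice. The pools did not overlap in any treatment. The log2 difference was -0.84, -0.997 and -1.05, with adjusted p of 0.000159, 0.00951 and 0.00227.

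Htr1f (chr16:64924729-65105854, minus strand), the target of the migraine drug lasmiditan, was a low member and also lower in TRAP. Its TRAP level was 3.42, 2.77 and 4.27 CPM in the 3 Control mice, 4.00, 3.25, 5.95 and 3.13 CPM in the 4 EtOH mice and 5.82, 1.50, 2.32 and 4.55 CPM in the 4 EtOH + ABT-888 mice. Its total-RNA level was 6.90, 8.29 and 9.49 CPM in the 3 Control mice, 6.60, 6.90, 6.88 and 8.50 CPM in the 4 EtOH mice and 7.67, 7.83, 6.14 and 7.75 CPM in the 4 EtOH + ABT-888 mice. The pools did not overlap in any treatment, and the log2 difference was -1.25 (adjusted p 0.000569), -0.84 (adjusted p 0.0216) and -1.03 (adjusted p 0.0498). The last value lay at the threshold, and the call was kept without the TRAP library of mouse 3 and lost without any other library (adjusted p up to 0.107). The EtOH call of Htr1f was lost without the TRAP library of mouse 5 or the total-RNA library of mouse 9 (adjusted p up to 0.068).

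The Gq-coupled pair went in opposite directions between the pools. Htr2a (chr14:74640840-74709494, plus strand), the receptor through which hallucinogens act, read 39.9, 30.2 and 43.1 CPM in the 3 Control mice, 33.8, 26.9, 40.0 and 36.6 CPM in the 4 EtOH mice and 38.9, 30.6, 15.5 and 32.5 CPM in the 4 EtOH + ABT-888 mice in TRAP RNA. Its total-RNA level was 71.5, 62.6 and 58.8 CPM in the 3 Control mice, 34.5, 41.8, 42.1 and 47.2 CPM in the 4 EtOH mice and 68.6, 63.5, 29.1 and 49.8 CPM in the 4 EtOH + ABT-888 mice. TRAP was the lower value in 11 of 11 mice, but the pools were apart in Control mice only. TRAP minus total RNA on the log2 scale was -0.79 (adjusted p 0.000464) in Control, -0.29 (adjusted p 0.16, not called) in EtOH and -0.85 (adjusted p 0.0453) in EtOH + ABT-888 mice. The last call was kept without the TRAP library of mouse 3 or the total-RNA library of mouse 10, was lost without any other library (adjusted p up to 0.122) and had an adjusted p of 0.000193 with the mouse as a block.

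Htr2c (chrX:146962513-147197277, plus strand), which shares signalling with Htr2a and whose mRNA is edited by adenosine deaminases, was higher in TRAP in 10 of 11 mice. The TRAP libraries gave 83.7, 99.1 and 88.4 CPM in the 3 Control mice, 84.8, 131, 114 and 69.9 CPM in the 4 EtOH mice and 96.9, 89.0, 135 and 78.9 CPM in the 4 EtOH + ABT-888 mice. The total-RNA libraries gave 35.2, 37.3 and 50.7 CPM in the 3 Control mice, 75.8, 72.0, 61.3 and 72.2 CPM in the 4 EtOH mice and 45.7, 36.7, 47.2 and 45.5 CPM in the 4 EtOH + ABT-888 mice. The pools did not overlap in Control and EtOH + ABT-888 mice and overlapped in EtOH mice, where total RNA was highest. The log2 difference was 1.12 (adjusted p 3.11e-05), 0.49 (adjusted p 0.0417) and 1.19 (adjusted p 0.000413). The EtOH call was kept without the TRAP library of mouse 2 or 9 and lost without any other library (adjusted p up to 0.126). Of the choroid plexus markers, 1 of 6 tested was higher in TRAP in Control mice (Clic6, median 21.8 CPM against 4.52 CPM in total RNA) and 4 were lower, among them Enpp2 (42.0 against 273 CPM). Other markers of that list were far below Enpp2, with total-RNA medians of 5.57 CPM for Ttr, 0.232 CPM for Folr1 and 0.199 CPM for Kcne2. The part of these markers in the Htr2c values was not tested.

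Htr3a (chr9:48899213-48911099, minus strand), the ion channel subunit of a class of cortical interneurons, was sparse in TRAP RNA. Its TRAP level was 1.49, 0.942 and 2.67 CPM in the 3 Control mice, 4.08, 0.975, 0.639 and 1.70 CPM in the 4 EtOH mice and 1.39, 6.60, 1.21 and 0.748 CPM in the 4 EtOH + ABT-888 mice. In total RNA it was 4.36, 3.83 and 3.34 CPM in the 3 Control mice, 6.45, 4.47, 6.15 and 3.87 CPM in the 4 EtOH mice and 4.36, 5.37, 5.57 and 4.38 CPM in the 4 EtOH + ABT-888 mice. The TRAP libraries of mice 2 and 6 were the high ones, and the other TRAP values of those groups lay under all of their total-RNA values. TRAP minus total RNA on the log2 scale was -1.17 (adjusted p 0.0139) in Control, -1.56 (adjusted p 0.0199) in EtOH and -1.08 (adjusted p 0.164, not called) in EtOH + ABT-888 mice, where the fit with the mouse as a block gave -1.49 (adjusted p 0.0217). In Control mice the Htr3a call was lost in 1 fit over all 22 libraries (adjusted p 0.143) and without the total-RNA library of mouse 1 (-1.07, adjusted p 0.0564). Without the TRAP library of mouse 2 the Htr3a value in EtOH mice was -2.28 (adjusted p 0.000625), and without that of mouse 6 the value in EtOH + ABT-888 mice was -2.14 (adjusted p 0.00133). The EtOH call of Htr3a was lost without the total-RNA library of mouse 2 (adjusted p 0.0538). The 12 markers listed for such interneurons include Gad1, Gad2 and Slc32a1, which mark inhibitory neurons in general. In Control mice Gad1, Gad2, Slc32a1 and Reln were higher in TRAP and 6 markers were lower, among them Ndnf at -2.51 and Prox1 at -1.92 on the log2 scale. Over the 11 mice, Slc32a1 had medians of 413 CPM in TRAP and 69.1 CPM in total RNA, and Vip of 8.69 and 51.2 CPM. The part of these markers in the Htr3a values was not tested.

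Among the Gs-coupled receptors, Htr6 and Htr4 leaned to TRAP and Htr7 to total RNA. Htr6 (chr4:139061108-139075570, minus strand), a receptor of striatum and of primary cilia, read 7.15, 6.15 and 7.39 CPM in the 3 Control mice, 5.68, 6.73, 7.62 and 6.53 CPM in the 4 EtOH mice and 9.92, 2.85, 4.06 and 7.73 CPM in the 4 EtOH + ABT-888 mice in TRAP RNA. In total RNA the values were 2.49, 4.01 and 2.53 CPM in the 3 Control mice, 2.81, 2.74, 2.48 and 2.92 CPM in the 4 EtOH mice and 3.48, 3.63, 1.76 and 2.80 CPM in the 4 EtOH + ABT-888 mice. TRAP was higher in 10 of 11 mice, the exception being mouse 6, whose TRAP library was the shallowest. The log2 difference was 1.17 (adjusted p 0.00162), 1.26 (adjusted p 0.00106) and 1.08 (adjusted p 0.0581, not called). Without the TRAP library of mouse 6 the last value was 1.30 (adjusted p 0.023), and with the mouse as a block 1.02 (adjusted p 0.0351). Htr6 was also called there by the exact test, DESeq2 and 1 fit over all 22 libraries (adjusted p 0.0353, 0.0347 and 0.00572).

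Htr4 (chr18:62324204-62496577, plus strand), a receptor linked to mood and memory, had the lowest median of the members in total RNA over the 11 mice. It stood at 2.69 CPM against 2.80 CPM for Htr6, but was not the lowest in EtOH mice. The TRAP level was 4.80, 4.21 and 4.55 CPM in the 3 Control mice, 6.77, 5.25, 3.19 and 4.62 CPM in the 4 EtOH mice and 10.1, 0.450, 2.16 and 4.24 CPM in the 4 EtOH + ABT-888 mice. The total-RNA level was 1.58, 2.18 and 3.09 CPM in the 3 Control mice, 5.22, 3.50, 2.69 and 3.28 CPM in the 4 EtOH mice and 4.46, 2.08, 1.46 and 2.65 CPM in the 4 EtOH + ABT-888 mice. TRAP was higher in 10 of 11 mice, with mouse 6 again the exception at 3 counts. The difference was called in Control mice (0.95 on the log2 scale, adjusted p 0.0123), while it was 0.40 (95% interval -0.28 to 1.09) in EtOH and 0.69 (-0.77 to 2.14) in EtOH + ABT-888 mice. The Control call of Htr4 was lost in 1 fit over all 22 libraries (adjusted p 0.187) and without the total-RNA library of mouse 1 (0.76, adjusted p 0.0533). Without the TRAP library of mouse 3 the last value of Htr4 was -0.16 (adjusted p 0.857).

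Htr7 (chr19:35958734-36057507, minus strand), linked to the body clock and to mood, was lower in TRAP in 11 of 11 mice. The TRAP libraries read 2.24, 5.48 and 3.75 CPM in the 3 Control mice, 2.04, 0.278, 2.21 and 3.88 CPM in the 4 EtOH mice and 3.77, 3.30, 2.00 and 2.24 CPM in the 4 EtOH + ABT-888 mice. The total-RNA libraries read 6.52, 6.94 and 6.15 CPM in the 3 Control mice, 7.27, 6.02, 6.64 and 8.32 CPM in the 4 EtOH mice and 5.58, 6.36, 7.23 and 7.54 CPM in the 4 EtOH + ABT-888 mice. The pools did not overlap in any treatment, and the TRAP library of mouse 5 was the lowest with 6 counts. TRAP minus total RNA on the log2 scale was -0.74 (adjusted p 0.0321), -1.78 (adjusted p 0.0133) and -1.25 (adjusted p 0.00685). The Control call was kept without the TRAP library of mouse 4 and lost without any other library (adjusted p up to 0.0939).

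**Figure D3:**
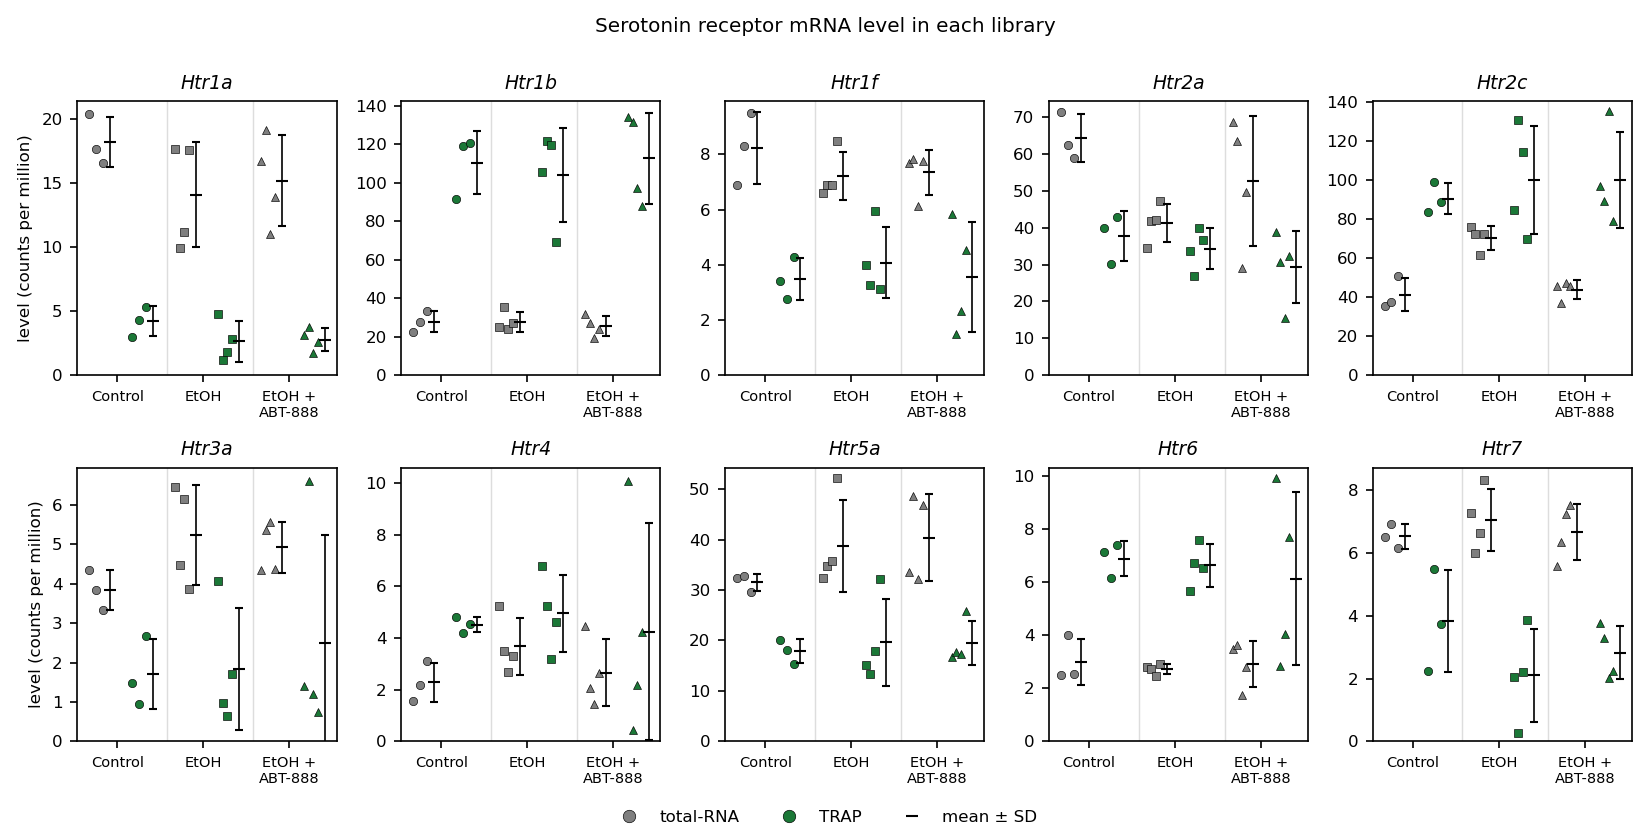
Level (CPM, linear axis from 0) of the 10 receptor mRNAs in each of 22 libraries, by treatment, with total-RNA in grey, TRAP in green and the mean ± SD beside each group (n = 3 Control, 4 EtOH and 4 EtOH + ABT-888 mice; a bar that would pass below 0 is cut there). Htr2a in total RNA ran from 34.5 to 47.2 CPM in EtOH mice and from 58.8 to 71.5 in Control mice, and Htr2c from 61.3 to 75.8 against 35.2 to 50.7.

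Htr1d, a close relative of Htr1b that is not among the 10, was also higher in TRAP, at 3.22, 2.15 and 2.66 on the log2 scale in the 3 treatments (adjusted p 3.88e-06, 3.69e-05 and 8.84e-05). Htr2b, Htr3b and Htr5b had 34, 12 and 343 counts over the 22 libraries together and were not tested.

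The second question was whether ethanol changed the receptor mRNAs. In total RNA, Htr2a fell and Htr2c rose in EtOH mice, 2 of 10 members called where 17.6% of all tested genes were. Htr2a averaged 64.3 ± 6.54 CPM (SD, n = 3) in Control and 41.4 ± 5.21 CPM (SD, n = 4) in EtOH mice. The 4 EtOH values all lay under the 3 Control values, and the log2 fold change was -0.63 (SE 0.12, 95% interval -0.90 to -0.37, adjusted p 0.00551, edgeR).

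Htr2c averaged 41.1 ± 8.43 CPM (SD, n = 3) in Control and 70.3 ± 6.25 CPM (SD, n = 4) in EtOH mice. The 4 EtOH values all lay above the 3 Control values, and the log2 fold change was 0.78 (SE 0.14, 95% interval 0.48 to 1.07, adjusted p 0.00323). Both calls were kept in 7 of 7 fits without 1 library. Both were lost in 1 fit over all 22 libraries, in which all groups share an estimate of the spread, with adjusted p of 0.233 for Htr2a and 0.0583 for Htr2c. That fit called 151 of 14072 genes in this comparison, against 2482 with the 2 groups fitted alone.

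Markers of several cell types moved in the same comparison, and their part in these results was not tested. Of 12 striatal projection neuron markers 3 rose and 0 fell, with a median of 0.12 on the log2 scale: Ppp1r1b by 0.67, Tac1 by 0.66 and Isl1 by 0.94. The summed level of that list was 1958 to 2827 CPM in EtOH and 1787 to 2261 CPM in Control mice. Of 6 excitatory cortical markers 2 fell, Neurod6 by 0.99, and Neurod2 rose by 0.66, with summed levels of 3406 to 3879 CPM in EtOH and 3040 to 3714 CPM in Control mice. Camk2a gave most of these sums, with a median of 2305 CPM against 3714 CPM for the list over the 11 total-RNA libraries. Of 6 microglia markers 5 fell, and their sum was 77.1 to 112 CPM in EtOH against 225 to 238 CPM in Control mice. Of 12 choroid plexus markers, 6 of them tested, 0 rose and Ttr (transthyretin) fell by 3.25, while Kcne2 and Folr1 stayed under 1 CPM in each total-RNA library. The choroid plexus list summed to 230 to 314 CPM in EtOH and 317 to 456 CPM in Control mice, most of it from the single gene Enpp2.

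The other 8 members were not called in total RNA of EtOH mice. Htr4 came closest, with a log2 fold change of 0.68 (95% interval 0.06 to 1.31, adjusted p 0.115), and its EtOH and Control values overlapped. Htr3a was at 0.45 (-0.03 to 0.94), Htr5a at 0.30 (-0.04 to 0.64) and Htr1a at -0.37 (-0.80 to 0.07). Htr1b was at 0.01 (-0.35 to 0.36), Htr1f at -0.19 (-0.57 to 0.18), Htr6 at -0.13 (-0.64 to 0.38) and Htr7 at 0.11 (-0.26 to 0.48). The median over the 10 members was 0.06, against 0.0011 over all tested genes.

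In TRAP RNA, 0 of the 10 members were called between EtOH and Control mice, where 5.24% of tested genes were. At an unadjusted p under 0.05 there were 0 members and 3249 of 14072 genes, and edgeR's exact test and DESeq2 called 0 members and 1372 and 1523 genes. Htr2a stood at -0.12 (95% interval -0.52 to 0.29) and Htr2c at 0.17 (-0.28 to 0.62). The widest intervals were those of the sparse members, with Htr3a at -1.30 to 1.48 and Htr7 at -2.21 to 0.46. A 2-fold change in either direction lay within the interval of Htr3a, a 2-fold fall within those of Htr7 and Htr1a (-1.69 to 0.30) and a 2-fold rise within that of Htr1f (-0.53 to 1.02), and the Htr3a value of 0.09 became -0.62 without the TRAP library of mouse 2.

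Whether the ethanol difference depended on the pool was tested as an interaction, which was called for 0 members and 0.0213% of tested genes. For Htr2c it was -0.63 (SE 0.28, unadjusted p 0.0328, adjusted p 1), 1 of 10 members with an unadjusted p under 0.05 where 685 of 14072 genes had one, and for Htr2a 0.50 (95% interval -0.26 to 1.26). A likelihood ratio test and DESeq2 called 0 members and 16 genes each. The response of Htr2a and Htr2c in total RNA was therefore not shown to differ from that in TRAP RNA.

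**Figure D4:**
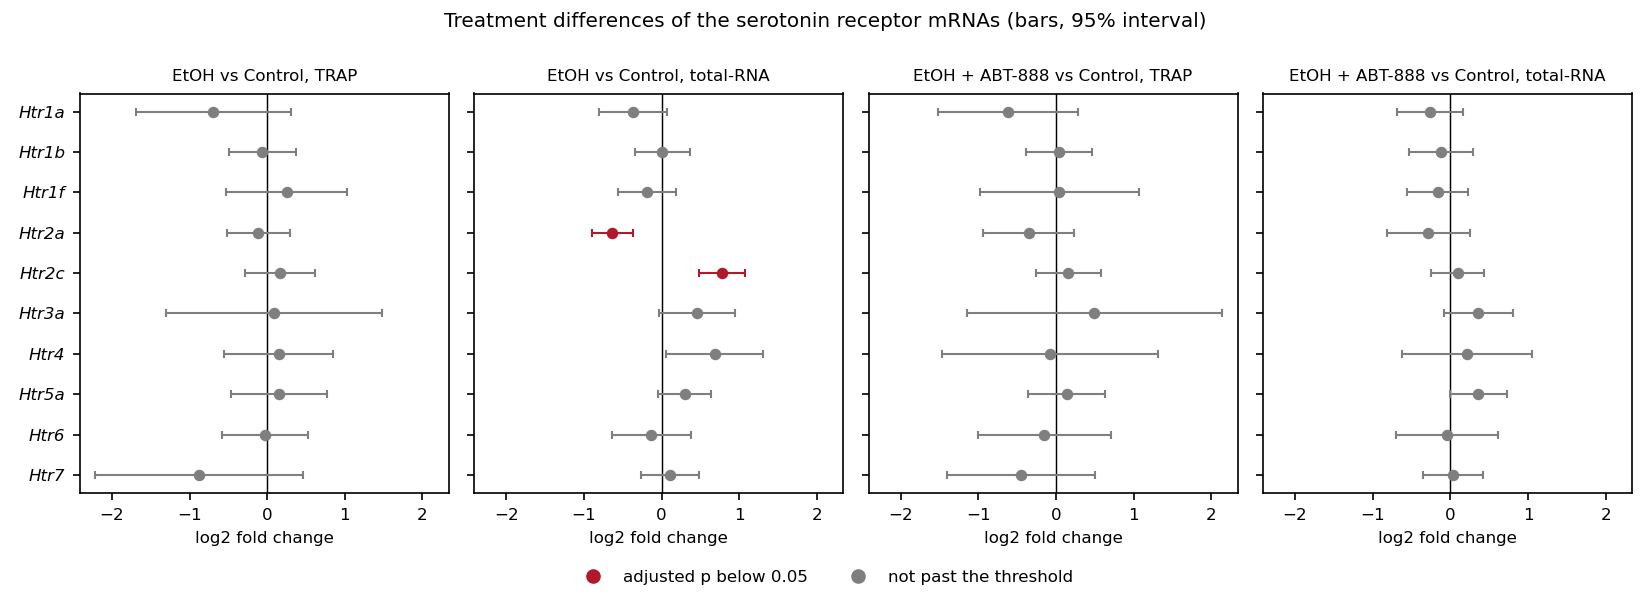
Log2 fold change of the 10 receptor mRNAs against Control, in TRAP and total RNA, for EtOH and for EtOH + ABT-888 mice, with bars for the 95% interval and red for adjusted p under 0.05. Htr2a at -0.63 and Htr2c at 0.78 in total RNA of EtOH mice are the 2 called values.

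The third question was what ABT-888 on the last day added. In EtOH + ABT-888 mice 0 members were called against Control in total RNA (0.263% of tested genes called) and 0 in TRAP RNA (0.476%) by edgeR. At an unadjusted p under 0.05 there were 0 members in either pool, against 2243 of 14072 genes in total RNA and 1696 in TRAP RNA. The exact test and DESeq2 called 0 members, and 544 and 621 genes in total RNA and 318 and 420 in TRAP RNA. These comparisons use the same Control libraries as those of EtOH mice. Htr2c averaged 43.8 ± 4.78 CPM (SD, n = 4) in total RNA, a log2 fold change of 0.09 (95% interval -0.25 to 0.44) against Control. Htr2a averaged 52.8 ± 17.7 CPM (SD, n = 4), with mouse 10 the lowest of the 11 total-RNA values at 29.1 CPM, and a log2 fold change of -0.28 (-0.81 to 0.25).

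Set against EtOH mice directly, 0 members and 0% of tested genes were called in either pool by the quasi-likelihood test of edgeR, with 136 genes in TRAP and 269 in total RNA at an unadjusted p under 0.05. The member with the lowest unadjusted p was Htr2c. Its 4 total-RNA values in EtOH + ABT-888 mice all lay below the 4 of EtOH mice, with a log2 difference of -0.68 (SE 0.12, 95% interval -0.95 to -0.41, unadjusted p 0.000119, adjusted p 1). edgeR's exact test gave an adjusted p of 0.0219 and DESeq2 of 0.00355, and each of the 2 tools called 2 genes in all. In TRAP RNA the difference of Htr2c was -0.01 (-0.50 to 0.48), and 0 members had an unadjusted p under 0.05 or were called by the exact test or DESeq2. For Htr2a the total-RNA difference was 0.35 (-0.13 to 0.83), and the groups overlapped. The interaction of EtOH + ABT-888 with the pool was called for 0 members and 0% of genes, with 0 members and 476 genes at an unadjusted p under 0.05, and 0 members by a likelihood ratio test or DESeq2. The 12 striatal markers had 0 calls and a median log2 difference of -0.28 between EtOH + ABT-888 and EtOH total RNA, the same direction as Htr2c, and a summed level of 1457.5 to 2109 CPM in EtOH + ABT-888 mice, a range that overlapped that of EtOH mice, and their part in the Htr2c difference was not tested.

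The wider serotonin pathway was followed through a list of 65 further genes, the 4 other receptors included, of which 55 were tested. Between TRAP and total RNA 19 were higher and 26 lower in Control mice (29.5% and 30.4% of all tested genes), 19 and 24 in EtOH mice (24.3% and 26.5%) and 17 and 21 in EtOH + ABT-888 mice (19.5% and 21.5%). Against Control, 4 rose and 4 fell in TRAP RNA of EtOH mice and 4 rose and 8 fell in total RNA (5.24% and 17.6% of all tested genes were called there), with medians over the list of -0.15 and -0.16 on the log2 scale. In EtOH + ABT-888 mice 1 rose and 1 fell in TRAP RNA (0.476% of all tested genes called) and 0 rose and 1 fell in total RNA (0.263%). Unlike those of the members, calls of the pathway genes were not recomputed under other fits or without single libraries. In EtOH against Control total RNA, 1 fit over all 22 libraries called 151 genes in place of 2482.

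Of the genes that make, move and break down serotonin, 5 of the 10 listed were tested. Ddc rose in total RNA of EtOH mice and Maoa in both of their pools. The synthesis enzyme Tph2 averaged 0.907 CPM in Control and 1.10 CPM in EtOH total RNA, and the serotonin transporter Slc6a4 0.0531 and 0.0824 CPM. Ddc, the decarboxylase that makes both serotonin and dopamine, averaged 2.50 ± 0.394 CPM (SD, n = 3) in Control and 13.1 ± 1.79 CPM (SD, n = 4) in EtOH total RNA, a log2 fold change of 2.38 (SE 0.19, adjusted p 3.03e-05). Ddc was not called in EtOH TRAP RNA (2.23, adjusted p 0.0696) or in EtOH + ABT-888 mice, where it was at 1.91 in TRAP (adjusted p 0.236) and 1.96 in total RNA (adjusted p 0.0523). Maoa, the monoamine oxidase that prefers serotonin, rose by 0.92 in TRAP (adjusted p 0.0165) and by 0.42 in total RNA (adjusted p 0.0225). The neighbouring enzyme Maob was at 0.30 and 0.04 and was not called. Slc22a3, a low-affinity monoamine transporter, was higher in TRAP than in total RNA, by 2.57 in Control mice.

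Among partners of the receptors, Mpdz, a scaffold that binds the tail of Htr2c, fell by 1.70 in TRAP and by 1.06 in total RNA on the log2 scale (adjusted p 0.0256 and 0.00233). Grk5, a kinase that desensitises receptors, fell by 0.99 and 0.93. Ric3, a chaperone of Htr3 channels, rose by 0.36 in total RNA. Adar and Adarb1, which edit Htr2c, and their relative Adarb2 were not called in a comparison with Control.

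In the Gq branch, Rgs4, which shortens Gq and Gi signals, was the 1 gene of the list that fell in all 4 comparisons with Control. It averaged 816 ± 50.3 CPM (SD, n = 3) in Control, 389 ± 49.0 CPM (SD, n = 4) in EtOH and 441 ± 83.7 CPM (SD, n = 4) in EtOH + ABT-888 total RNA, with log2 fold changes of -1.07 (adjusted p 0.000245) and -0.88 (adjusted p 0.047). In TRAP they were -1.20 (adjusted p 0.0121) and -1.03 (adjusted p 0.0258). Plcb3, a phospholipase C, fell in EtOH TRAP by 1.72, Itpr1, its calcium channel, fell in EtOH total RNA by 0.36, and the Gq-class subunit Gna11 rose in EtOH TRAP by 0.58. In TRAP RNA against Control, 1 of 6 excitatory cortical markers was called lower in EtOH (median log2 difference -0.94) and 2 of 6 in EtOH + ABT-888 mice (-1.02), with summed levels of 2494 to 3269 and 2207 to 3212 CPM against 2379 to 2643 CPM in Control. Camk2a gave most of these sums, with a median of 2291 CPM against 2577 CPM for the list over the 11 TRAP libraries. Of 6 microglia markers 1 was lower in EtOH (median -1.29) and 0 in EtOH + ABT-888 mice (median -0.60). Of 12 interneuron markers 1 was lower in each (medians -0.56 and -0.37). Of 6 oligodendrocyte markers 0 were called (medians 0.19 and 0.87), with sums of 318 to 1458 CPM in EtOH + ABT-888 and 339 to 441 CPM in Control mice. The part of these markers in the TRAP changes of the pathway genes was not tested.

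In the Gi/o branch, Rgs14 rose in TRAP of both ethanol groups, by 1.28 (adjusted p 0.0068) and 0.96 (adjusted p 0.0322), from 48.3 ± 3.94 CPM (SD, n = 3) in Control to 116 ± 28.5 CPM (SD, n = 4) and 92.8 ± 10.9 CPM (SD, n = 4). The potassium channel Kcnj9 and the regulator Rgs10 fell in EtOH total RNA, by 0.77 and 0.57. In the Gs branch the adenylyl cyclases Adcy2 and Adcy3 fell in EtOH total RNA, by 0.50 and 0.57, and Adcy9 rose by 0.39 there and by 0.75 in TRAP.

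**Figure D5:**
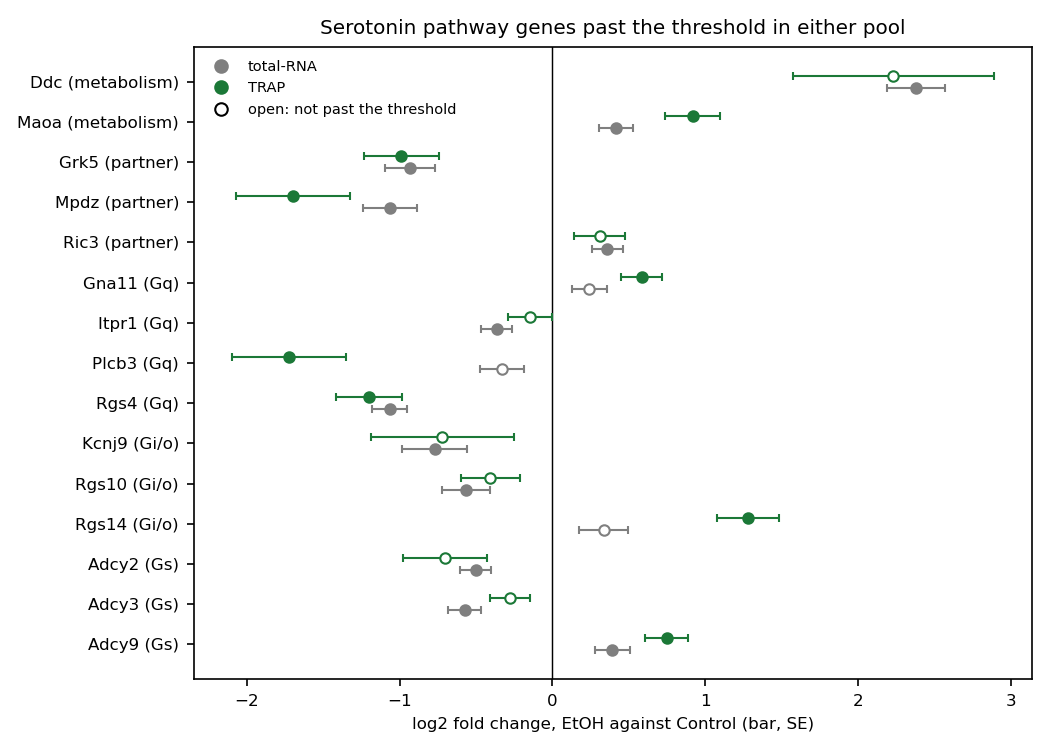
Log2 fold change in EtOH against Control mice of the serotonin pathway genes called in either pool (green, TRAP; grey, total-RNA; bars, SE; open symbols, not past the threshold). Rgs4 lies near -1.20 in TRAP and -1.07 in total RNA, and Ddc at 2.38 in total RNA.

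The genes most like each receptor were found by Pearson correlation of log2 CPM over the 22 libraries with the mean of each pool taken out, among 14072 genes. The libraries come from 11 mice and share treatment and depth, so the values are a description. Nearest to Htr1a were Ttc37 (0.880), Yipf2 (0.871) and Il10rb (0.868). For Htr1b they were Kmt5b (0.838), Tmem121b (0.762) and Vps4b (0.746). Nearest to Htr1f were Rnase4 (0.881) and S1pr2 (0.814). For Htr2a they were Taf6l (0.887), Tmem131 (0.887) and Hdhd3 (0.876). Nearest to Htr2c were Nrsn2 (0.873), Plppr1 (0.826) and Arf4 (0.807). For Htr3a they were Pola2 (0.830), Arid5b (0.797) and Bora (0.767). Nearest to Htr4 were Tmem170 (0.858), Smim1 (0.857) and Pgf (0.841). For Htr5a they were Lurap1l (0.750), Pik3r1 (0.750) and Dcbld2 (0.745). Nearest to Htr6 were Gdpgp1 (0.863), Abi3 (0.831) and Sall1 (0.830). For Htr7 they were Gng5 (0.913), Rbms2 (0.881) and Egln3 (0.879).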

How the data were processed

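PFC RNA of 11 mice was sequenced as 22 libraries. According to the study's methods and the submitters' processing notes, rRNA-depleted paired-end reads were aligned to mm10 with STAR and assigned to Ensembl genes with featureCounts; versions and strand setting are not given in the sources used here. The deposited values are the authors' raw counts per gene, and 0 columns of values were left unused.

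Genes with at least 500 counts in total and counts in at least 3 libraries were tested (14072 of 39056). Each pair of groups was fitted alone with the quasi-likelihood test of edgeR 4.0.16 (R 4.3.3, TMM factors, Benjamini-Hochberg adjustment, threshold 0.05), and interactions in 1 fit over 6 groups. Alternatives were RLE factors, no filter, edgeR's exact or likelihood ratio test, DESeq2 1.42.0, 1 fit over all libraries, the mouse as a block and leaving out each library. CPM used TMM factors over 22 libraries and log ratios a prior count of 1. Gene positions and exon lengths came from GENCODE M21, and promoter windows from RefSeq (GRCm38.p6). Scripts were tested on simulated data.

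The TRAP and total-RNA libraries shared the mouse by the animal number in the labels, and the deviations of the 11 pairs from their group means correlated at 0.102 to 0.622. The genes named are the 10 members, the pathway genes called in a comparison of a treatment with Control and the 3 genes most like each member (2 for Htr1f). The other serotonin receptors, the antisense gene at Htr1b and single genes of the marker lists are named as well. Items withheld from the text are not reported here. Maob, Slc22a3, Tph2, Slc6a4, the Adar family and some single marker genes were named after their values were seen. Members and lists were chosen with earlier results of these data known. Low values are limited by counting error at least, and mice are the replicates.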

Additional observations from a re-analysis of the deposited data

Results flagged for a closer look

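Among 40 sets of 4 libraries (10 receptors in the EtOH and EtOH + ABT-888 groups of each pool), 6 had a library at the edge whose gap to the next value took up more of the group's range than Dixon's critical value at the 95% level, where chance gives about 1 in 20. In total RNA of EtOH + ABT-888 mice, Htr1f was lowest in mouse 10 at 6.14 CPM with the next value at 7.67, and Htr2c was lowest in mouse 6 at 36.7 CPM with the next at 45.5. In total RNA of EtOH mice, mouse 9 was highest for both Htr1f, at 8.50 CPM with the next at 6.90, and Htr5a, at 52.2 CPM with the next at 35.7. In TRAP RNA of EtOH + ABT-888 mice, Htr3a was highest in mouse 6 at 6.60 CPM, from 44 counts, with the next at 1.39, and Htr5a was highest in mouse 11 at 25.9 CPM with the next at 17.7. The Control groups, of 3 mice, were not examined in this way.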

How the results depend on the processing

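Over the comparisons in which a receptor had an unadjusted p under 0.05, 420 single-receptor values were recomputed, of which 377 kept their direction and side of the threshold, 35 lost the call, 8 gained it and 0 reversed. With 1 fit over all 22 libraries, the count of receptors called in total RNA of EtOH against Control mice went from 2 to 0, beside 2482 to 151 of all 14072 genes. In that fit Htr3a, Htr4 and Htr7 lost their TRAP call in Control mice (adjusted p 0.143, 0.187 and 0.207). Between EtOH + ABT-888 and EtOH total RNA the count went from 0 to 1 with edgeR's exact test and to 1 with DESeq2, in both cases Htr2c. The cause was not tested. Without the filter on low counts Htr2c lost its TRAP call in EtOH mice (adjusted p 0.0506). Leaving out 1 library at a time gave 7 to 10 receptors called between the pools in Control, 6 to 8 in EtOH and 5 to 7 in EtOH + ABT-888 mice, and 2 to 2 in EtOH against Control total RNA, where 7392 to 8383, 6140 to 7085, 4544 to 5939 and 878 to 3616 of all 14072 genes were called. Htr3a and Htr4 lost their Control call without the total-RNA library of mouse 1 (0.0564 and 0.0533), and Htr3a its EtOH call without that of mouse 2 (0.0538). In EtOH + ABT-888 mice Htr6 gained a call with the exact test, DESeq2 and 1 fit (0.0353, 0.0347 and 0.00572), and without TRAP mouse 6 or 10 (0.023 and 0.0324), and Htr3a, with an unadjusted p above 0.05 and so outside those 420 values, gained one without TRAP mouse 6 (0.00133). Htr1f lost its EtOH call without TRAP mouse 5 or total-RNA mouse 9 (up to 0.068).

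With the mouse as replicate block, 10, 8 and 9 receptors were called between the pools in Control, EtOH and EtOH + ABT-888 mice, beside 8788, 8276 and 7642 of 14072 genes, and 0 receptors in both interactions. Htr3a and Htr6 gained a call in EtOH + ABT-888 mice, and the block changed no other call.

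Over all genes, the calls in EtOH against Control TRAP RNA rose from 737 to 1472 without the filter, 1372 with the exact test, 1523 with DESeq2 and 1191 in 1 fit, and in total RNA fell from 2482 to 151 in 1 fit. For EtOH + ABT-888 against Control, calls in TRAP rose from 67 to 454 without the filter, 318 with the exact test, 420 with DESeq2 and 403 in 1 fit, and in total RNA from 37 to 544, 544 and 621 with the first 3 of these. Between EtOH + ABT-888 and EtOH total RNA they went from 0 to 2 with the exact test and 2 with DESeq2. The interaction calls for EtOH went from 3 to 5 without the filter, 16 with a likelihood ratio test, 16 with DESeq2 and 14 with the block, and those for EtOH + ABT-888 from 0 to 1, 6 and 4 with the first 3. Counts were low for some receptors, with a TRAP library at 3 counts for Htr4, 6 for Htr7, 10 for Htr1f and 12 for Htr3a.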
